A study of Mus musculus with 24 samples.

Results

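The genes that make and load MHC class I molecules were followed in MBMECs, which are endothelial cells from the brain microvessels of mice, kept in primary culture. They form the capillary wall and the blood-brain barrier. The set holds 10 genes, chosen by symbol from the 18091 genes of the wild-type table: the heavy chains H2-K1 and H2-D1, the light chain B2m, the peptide transporter subunits Tap1 and Tap2, the loading factor Tapbp, the immunoproteasome subunits Psmb8, Psmb9 and Psmb10, and the transcriptional coactivator Nlrc5. All 10 were present and all 10 had a mean of at least 10 normalized counts, the minimum for testing.

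The cells came from cortex and midbrain microvessels of C57B/6J mice, 12 mice per replicate, and were selected for 48 h in puromycin, which removes most other cell types. They were seeded on transwell inserts, which leave the apical face (towards the blood) and the basal face open to separate treatment, and were treated 48 h later for 24 h. There were 5 wild-type groups of 4 libraries: vehicle, 500 nM of the S1P4 receptor agonist CYM50260 on the apical side, the same agonist on the basal side, 50 nM sphingosine-1-phosphate (S1P) on the apical side, and 50 nM S1P on the basal side. Basal S1P is described in the series as opening the barrier and the other 3 treatments as tightening it. A sixth group of 4 libraries is labelled as cells of global S1P4 KO/KO mice given vehicle only. Its table was normalized separately, so its values are set beside the wild-type values without a test. S1pr4, the gene for the S1P4 receptor, had 250 to 349 normalized counts in the libraries labelled S1P4 KO and 113 to 190 in the wild-type libraries. The targeted gene therefore did not check that label at this scale. A library pools 3 inserts. The labels do not tie a replicate number to a pool of mice across groups, so each p-value reflects library-to-library spread, which may be partly technical. Xist, made by female cells, had 1, 2251, 1063 and 190 normalized counts in vehicle, so these 4 libraries were not all of 1 pool of cells.

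Class I molecules carry short peptides from inside the cell to its surface, where CD8+ T cells read them. The proteasome cuts proteins into peptides, the TAP transporter moves them into the endoplasmic reticulum, and tapasin (Tapbp) holds the transporter beside the waiting heavy chain and beta-2-microglobulin. Interferons, acting in part through Irf1 and the NLR protein Nlrc5, raise the whole pathway in most cells, and Nlrc5 binds class I promoters through a complex on the SXY module, whose X2 box and Y box hold the letters TGACG and ATTGG. Brain endothelium is known as a site where class I molecules meet circulating T cells.

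The promoter sequences are shown because they carry the element through which the coactivator in the set is known to act on other members. RefSeq promoter windows on build GRCm38.p6 (the assembly behind mm10) were found for 8 of the 10 members, and Nlrc5 and Tap2 had no entry. In the lines that follow, written 5′ to 3′ in the direction of the gene, capitals mark the X2 letters TGACG and the Y box letters ATTGG. The first 3 genes are members and H2-M3 is a non-classical heavy chain gene.
H2-K1: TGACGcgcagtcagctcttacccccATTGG
H2-D1: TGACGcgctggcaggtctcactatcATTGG
B2m: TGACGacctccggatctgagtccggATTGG
H2-M3: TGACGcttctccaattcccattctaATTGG
These 30-base stretches lie at chr17:34000359-34000388 on the minus strand, chr17:35262993-35263022, chr2:122147609-122147638 and chr17:37270188-37270217, the last 3 on the plus strand. The boxes are separated by exactly 20 bases in each. This spacing was read from the members' own sequences, so its presence in them is a description. Of 27025 genes with a window, 26 had TGACG followed by 20 bases and ATTGG on either strand (0.0962%). Among the 154 other genes of the pathway and marker lists with a window, H2-M3 was the single one. The H2-K1 and H2-D1 stretches shared 23 of 30 bases, 13 of them between the boxes, whereas B2m shared 13 with H2-K1 and 12 with H2-D1, with 3 and 2 between the boxes. B2m thus holds the same boxes as these heavy chain genes at the same distance, in sequence otherwise unlike theirs. All 150 bases before the RefSeq start site of H2-D1, its stretch included, lie in an annotated H2-D1 exon.

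The longer stretches before 2 of these genes show what else the windows hold. Capitals mark every match, on either strand, to the letters searched.
H2-K1: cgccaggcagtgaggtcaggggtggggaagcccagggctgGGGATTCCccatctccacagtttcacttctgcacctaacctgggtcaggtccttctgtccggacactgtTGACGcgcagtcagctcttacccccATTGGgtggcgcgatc
B2m: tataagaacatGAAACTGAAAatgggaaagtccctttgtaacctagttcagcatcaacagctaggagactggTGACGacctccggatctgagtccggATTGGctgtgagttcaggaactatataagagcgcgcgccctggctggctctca
The H2-K1 stretch is chr17:34000348-34000497 on the minus strand and the B2m stretch chr2:122147537-122147686 on the plus strand, each the 150 bases before a RefSeq start site. The letters GGGATTCC, an NF-kB site of class I promoters, were in the H2-K1 and H2-D1 windows and in 0.889% of all windows of 250 bases. The exact letters of the interferon-stimulated response element core (GAAA, any 2 bases, GAAA) were in the B2m window alone among the members and in 2.98% of all windows. The gamma-activated site letters TTCNNNGAA were in the Psmb8 window and in 7.02% of all windows. CCAAT, the Y box on its other strand, was in 6 of 8 members and 33.8% of windows, and TGACG alone in 5 of 8 members and 17.8% of windows. A match is no proof of a bound site. Variants of these letters were not searched, so the lack of a match does not show that an element is absent.

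On mm10, 7 members lie on chromosome 17, in the H2 complex, with Psmb9, Tap1, Psmb8 and Tap2 as neighbours between 34181987 and 34216321. B2m is on chromosome 2 (122147686 to 122153083), and Psmb10 and Nlrc5 are on chromosome 8. Tap1 and Psmb9 start head to head on opposite strands and their annotated spans overlap by 212 bases. Tapbp overlaps Zbtb22 on the same strand by 3422 bases. Of all distinct 50-base stretches in its transcripts, H2-D1 shared 12.8% and H2-K1 9.63% with transcripts of other genes, chiefly other heavy chains, while B2m, Psmb9, Psmb10 and Nlrc5 shared none. Values of the 2 heavy chains are therefore uncertain to the extent that reads from related genes were assigned to them or dropped, and how the authors handled such reads is not stated in the labels.

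In wild-type vehicle cells the members followed the order light chain, heavy chains, tapasin, transporter and proteasome, coactivator. Levels between genes were compared per kilobase of annotated exon. B2m stood at 635 ± 52 normalized counts per kb (SD, n = 4), H2-D1 at 405 ± 34, H2-K1 at 354 ± 21 and Tapbp at 314 ± 26. Tap2 followed at 160 ± 16, Psmb10 at 146 ± 18, Psmb8 at 98.0 ± 7.8, Tap1 at 96.6 ± 3.7, Psmb9 at 51.8 ± 2.8 and Nlrc5 at 22.02 ± 6.48. The ranges of the 4 vehicle libraries overlapped between H2-D1 and H2-K1, between H2-K1 and Tapbp, between Tap2 and Psmb10, and between Psmb8 and Tap1, so these neighbours were not separated by their spread. Over all 20 wild-type libraries, B2m was at percentile 99.96 of tested genes per kb, H2-D1 at 99.2, H2-K1 at 98.6, Tapbp at 97.7 and Nlrc5 at 22.1. The class I molecule itself was thus among the most abundant messages of these cells, and its coactivator lay below most tested genes.

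The distance between those levels was far smaller in the wild-type table than in the other. B2m exceeded Nlrc5 by 28.9-fold per kb in wild-type vehicle and by 1039-fold in the libraries labelled S1P4 KO. In the latter B2m stood at 24579 ± 3668 normalized counts per kb (SD, n = 4), H2-D1 at 5635 ± 589, H2-K1 at 4258 ± 548 and Tapbp at 1726 ± 185, while Nlrc5 stood at 23.7 ± 5.8. In normalized counts per gene, the 4 libraries labelled S1P4 KO had 17370, 19717, 23450 and 24016 of B2m. The 4 wild-type vehicle libraries had 503, 516, 568 and 599. The ratio of the group means was 38.7 for B2m, 13.9 for H2-D1, 12.0 for H2-K1, 5.49 for Tapbp, 2.73 for Psmb10, 2.52 for Psmb8, 2.36 for Psmb9, 2.21 for Tap1, 1.79 for Tap2 and 1.07 for Nlrc5. The ratio was largest for the 4 most abundant members and smallest for Nlrc5. Over all genes its median was 1.41 in the lowest 25% of tested genes per kb and 12.1 in the top 1%. The tested gene with the most normalized counts per kb, Apln, reached 758 in the wild-type table, 14.01 times the median, whereas the highest in the other table, mt-Co1, reached 1292 times its median. The range of abundant genes was thus compressed in the wild-type table, and ratios of member levels between the tables cannot be read as a difference between genotypes.

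**Figure D1:**
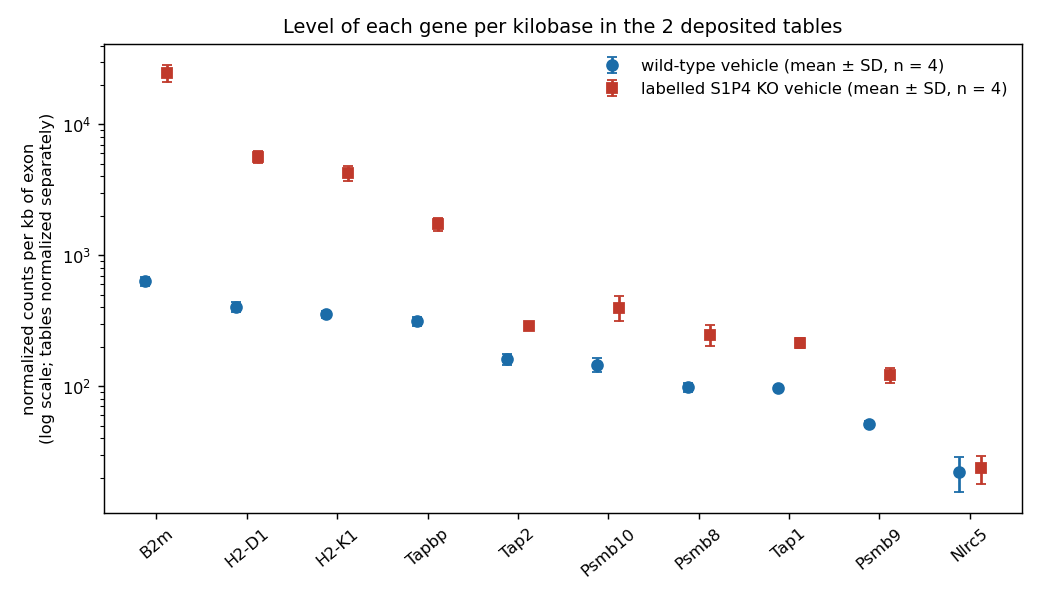
Level of each member per kilobase of exon, as mean ± SD of 4 libraries, on a log axis, in wild-type vehicle (circles) and in the libraries labelled S1P4 KO (squares). The tables were normalized separately. The 2 series meet at Nlrc5, at 22.02 and 23.7, and part by 38.7-fold at B2m.

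Abundant members also varied with the library's normalization among the 20 wild-type libraries. A normalized count here is a read count multiplied by 1 factor per library and rounded. In 17 of the 20 libraries the factor could be estimated from steps, which are whole numbers skipped or doubled by the rounding. In the other 3 (vehicle replicate 4, apical agonist replicate 1 and apical S1P replicate 3) no steps were found. Their value of 0.9995 says only that none were seen. A read was worth 0.8285 to 1.1685 normalized counts, and estimated reads on genes ran from 3.93 to 5.54 M, a 1.41-fold range. The reads of B2m ran only from an estimated 522 to 622, a 1.19-fold range, and those of H2-D1 from 953 to 1152. Normalized B2m accordingly moved with the factor across libraries (Pearson r = 0.86, n = 20 libraries that share replicate numbers and treatments, described without a p). The same r was 0.85 for H2-D1, 0.72 for Tapbp, 0.71 for Psmb10, 0.70 for H2-K1 and 0.67 for Psmb8. It was 0.08 for Tap2, -0.08 for Psmb9, -0.14 for Tap1 and -0.52 for Nlrc5. Over the 17 libraries with steps r was 0.87 for B2m, 0.76 for H2-K1, -0.16 for Tap1 and -0.57 for Nlrc5. Over the 20 libraries its median across tested genes went from -0.37 in the lowest 25% per kb to 0.80 in the top 1%, a pattern that the members shared.

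**Figure D2:**
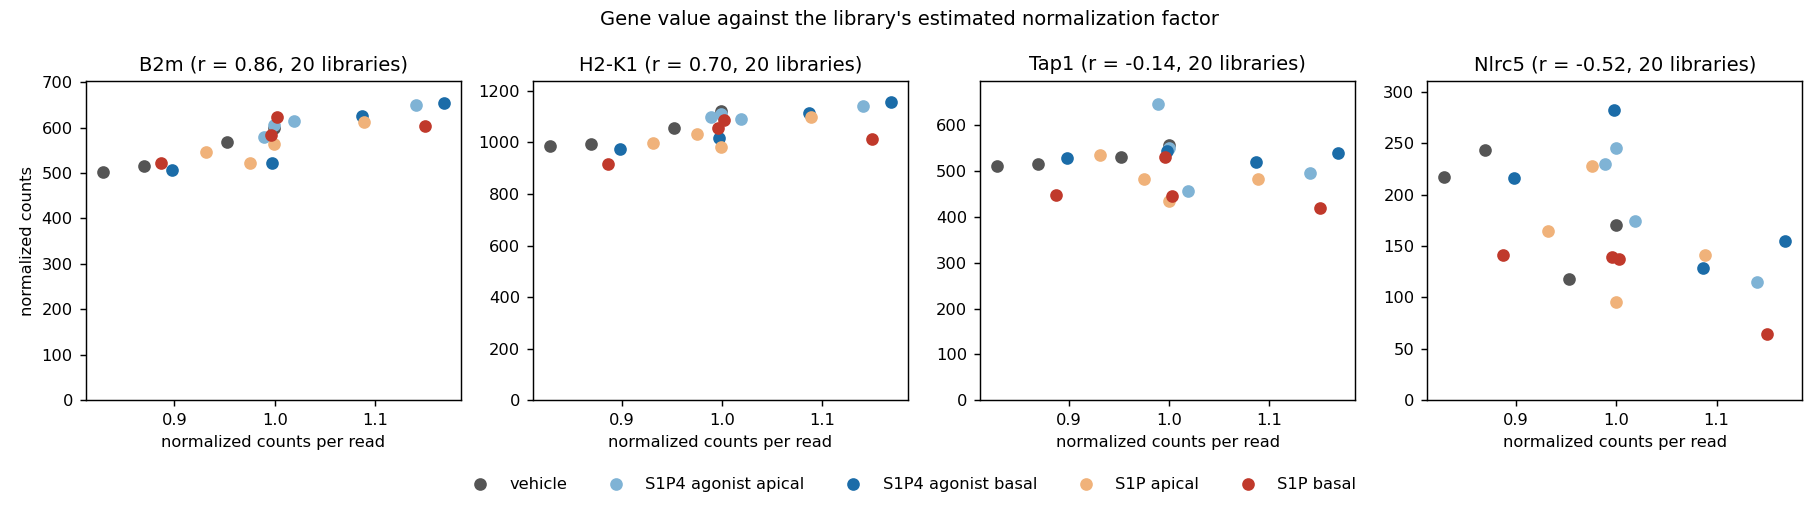
Normalized counts of B2m, H2-K1, Tap1 and Nlrc5 (vertical axes) against the estimated normalized counts that 1 read is worth in each of the 20 wild-type libraries (horizontal axes), coloured by treatment group. B2m climbs with the factor (r = 0.86), Tap1 is level (r = -0.14) and Nlrc5 declines (r = -0.52).

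The 3 vehicle libraries with steps had factors of 0.8285 to 0.9525, against 0.989 to 1.1405 with apical agonist and 0.887 to 1.15 with basal S1P. Changes are given as deposited and, where stated, after centring, in each library, on a smooth curve through genes of like value per base. The centring was chosen after the data were seen.

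No member passed the test in any comparison between treatments. As the range of abundant genes was compressed here, a small change of B2m, H2-D1, H2-K1 or Tapbp does not show steady transcript levels. With limma and Benjamini-Hochberg adjustment over 12249 genes, 0 of 10 members had an adjusted p under 0.05 for basal S1P against vehicle, where 0.0245% of tested genes did. The count was 0 of 10 also for basal against apical S1P (0.0245% of genes), for basal S1P against the mean of the 3 other treatments (0.049%), and for the 3 other treatments against vehicle and basal against apical agonist (0% of genes in each). At an unadjusted p under 0.05, 1 member was below vehicle with basal S1P (Tap1, against 5.22% of genes in either direction) and 2 were below the 3 other treatments (Tap1 and Nlrc5, against 5.63%). The number was 0 in the other 5 comparisons, where 0.996% (apical S1P against vehicle), 1.09% (apical agonist), 0.31% (basal agonist), 4.01% (basal against apical S1P) and 0.498% (basal against apical agonist) of genes had such a p. With replicate number as a block, 2 members had an unadjusted p under 0.05 (limma) for apical agonist against vehicle, B2m (0.0204) and H2-D1 (0.0263). Both were higher, with an adjusted p of 0.967. The numbers did not match every library there, as described with Nlrc5. Blocked, Tap1 (0.0147), Tap2 (0.0194) and Nlrc5 (0.0281) were also under 0.05 for basal S1P against vehicle, all lower. The same 3 were so against the 3 other treatments, with adjusted p of 0.219 or more in both comparisons. No member had such a p in the remaining comparisons. Its share over all genes was not counted in the blocked fits, so the members named from them have no background here. The unblocked shares do not stand in for it. For basal S1P against vehicle, the block raised the calls over all genes from 3 to 47.

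**Figure D3:**
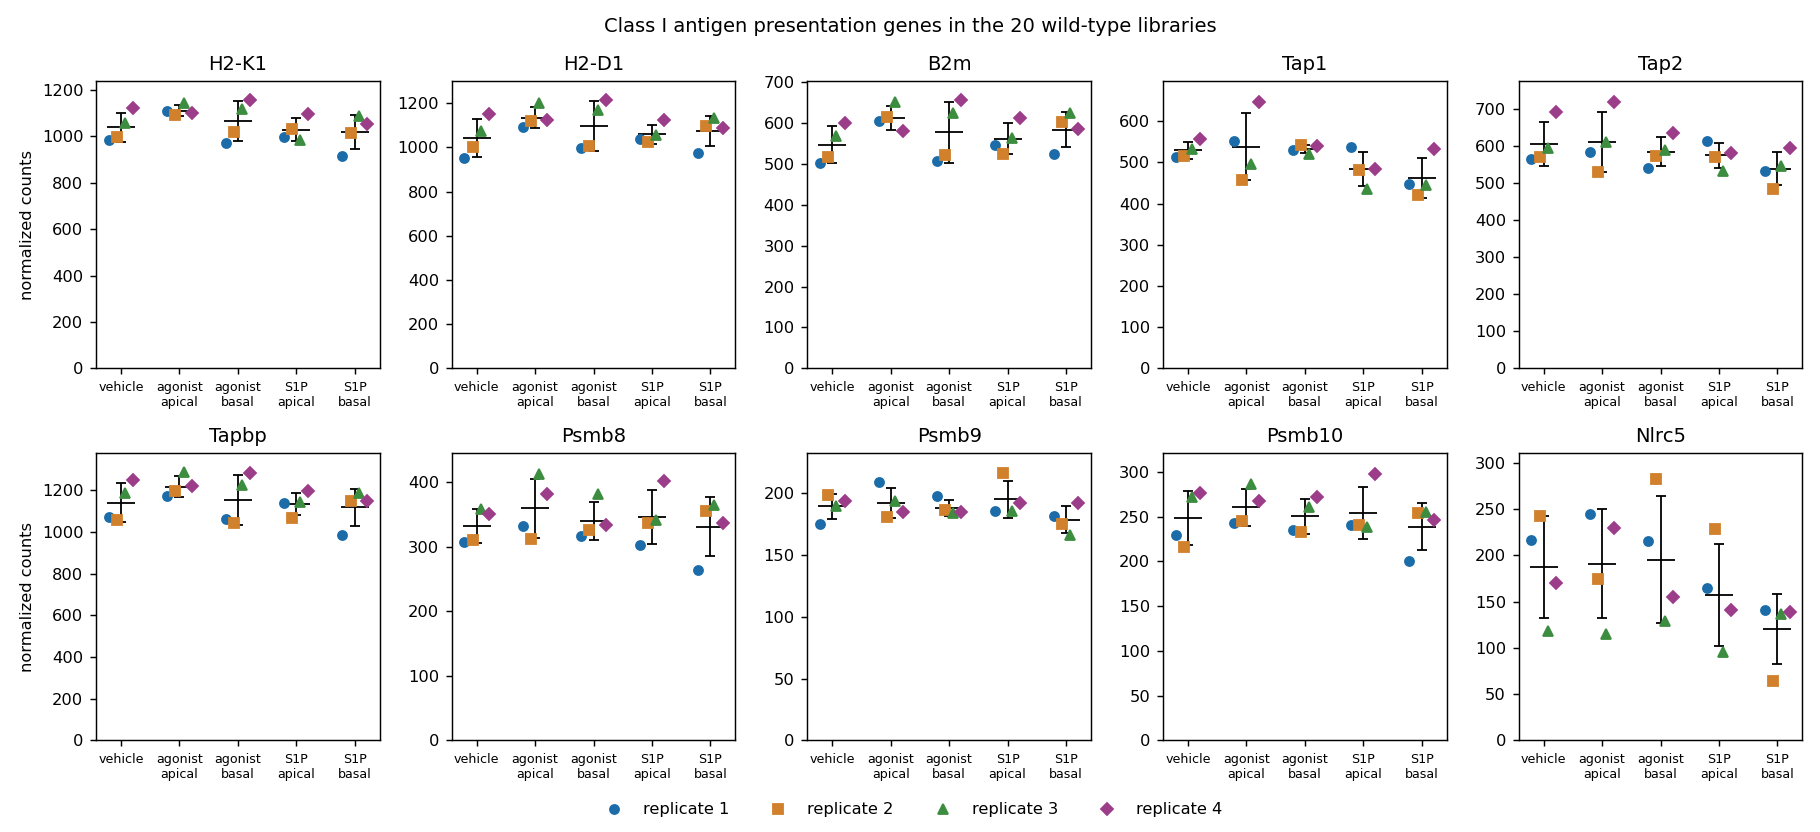
Normalized counts of each member in every wild-type library, by treatment group, with a marker for each replicate number and bars for mean ± SD (n = 4). The groups overlap for every gene, Nlrc5 spreads from 64 to 282, and the single lowest Nlrc5 value is replicate 2 of basal S1P.

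Tap1 and Tap2, which pair to form the peptide transporter, had lower means with basal S1P. Tap1 had 512, 516, 532 and 557 normalized counts in vehicle and 448, 420, 446 and 532 with basal S1P. Replicates 1 to 3 of basal S1P lay below every vehicle library and replicate 4 lay among them, so the groups overlapped. The log2 change was -0.20 ± 0.09 (SE, 95% interval -0.39 to -0.01, limma adjusted p = 0.756). With apical S1P it had 536, 482, 436 and 483 normalized counts, a log2 change of -0.13 ± 0.09 (adjusted p = 1.0 by limma), with 3 of 4 libraries below all of vehicle. That change was -0.08 without apical S1P replicate 3, -0.06 without the 4 libraries that did not match their number (described with Nlrc5), and -0.14 after centring. The agonist gave log2 changes of 0.01 on either side, within 1 SE of 0. Tap1 was widest with apical agonist, at 551, 457, 497 and 646.

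Tap2 had 564, 570, 593 and 691 normalized counts in vehicle and 532, 484, 546 and 593 with basal S1P. The log2 change of Tap2 was -0.16 ± 0.09 (95% interval -0.35 to 0.02, limma adjusted p = 0.756), and only 1 of the 4 values with basal S1P reached the vehicle range. Without vehicle replicate 4, which at 691 lay above the rest, it was -0.10. With apical S1P, apical agonist and basal agonist the Tap2 changes lay within 1 SE of 0. The transporter genes varied together over the 20 libraries (r = 0.85 as deposited, 0.90 after centring).

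Nlrc5 had the largest difference in means and the largest spread. It had 217, 243, 118 and 170 normalized counts in vehicle, and 141, 64, 137 and 139 with basal S1P. Basal S1P replicate 2 lay below all other libraries, and the other 3 basal S1P libraries lay within the vehicle range. The log2 change was -0.65 ± 0.33 (95% interval -1.33 to 0.03, limma adjusted p = 0.756), and -0.37 without basal S1P replicate 2, a move of more than 1.5-fold on that scale. Against the 3 other treatments it was -0.59 ± 0.27 (adjusted p = 0.858 by limma), and -0.31 without that library. After centring, the values against the 3 other treatments were -0.54 for Nlrc5 and -0.18 for Tap1. With apical S1P the counts were 165, 228, 96 and 141, with apical agonist 245, 174, 115 and 230, and with basal agonist 216, 282, 129 and 155, all with changes within 1 SE of 0. The lowest library of each of the 4 groups other than basal S1P was replicate 3. The coefficient of variation of Nlrc5 over the 20 libraries was 33.8%, against 6.13 to 10.5% for the other 9 members.

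Basal S1P replicate 2 also differed from its number in another gene. Xist, made by female cells, was at 552 normalized counts in it and at 2251 in vehicle replicate 2. By the same gene, apical agonist replicate 2, apical S1P replicate 3 and apical S1P replicate 4 did not match the other libraries of their number. Without these 4 libraries, the count of members called stayed at 0 in each comparison.

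The light chain and the heavy chains had slightly higher means with the apical agonist as deposited, and values near 0 after centring. B2m had 605, 615, 650 and 580 normalized counts with apical agonist, of which 3 exceeded all of vehicle, a log2 change of 0.17 ± 0.09 (95% interval -0.01 to 0.35, adjusted p = 1.0 by limma). H2-D1 had a log2 change of 0.12 ± 0.07, H2-K1 of 0.10 ± 0.07 and Tapbp of 0.10 ± 0.08. Leaving out vehicle replicate 1 took H2-D1 to 0.08, and leaving out vehicle replicate 2 took Tapbp to 0.06. After centring on genes of like value per base the 4 values were 0.01, -0.002, -0.02 and -0.01. As deposited, all 10 members had a higher mean with apical agonist than in vehicle, beside 5946 of 12249 tested genes and 14 of 16 endothelial markers. After centring 5 of 10 members did, beside 5875 of 12243 genes with a length and 6 of 16 endothelial markers.

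With basal S1P centring lowered the values of the abundant members. H2-K1 had 985, 995, 1056 and 1121 normalized counts in vehicle and 917, 1012, 1086 and 1055 with basal S1P, which overlap almost fully. B2m had 523, 603, 624 and 584 with basal S1P, a log2 change of 0.09 ± 0.09, which became -0.03 after centring. As deposited it was 0.06 without vehicle replicate 1 and 0.15 without basal S1P replicate 1. As deposited 8 of 10 members had a lower mean with basal S1P than in vehicle, with a median log2 change of -0.04, beside 50.0% of all tested genes and a median of 0.0002. After centring all 10 had a lower mean, with a median of -0.12, beside a median of 0.002 over all genes with a length. The 16 endothelial markers, which are also abundant, went from 4 lower as deposited to 14 lower after centring (median -0.05), so the shift on centring was not particular to the members. With apical S1P 5 of 10 members were lower as deposited and 7 after centring. Centred values were -0.22 ± 0.09 for Tap1 and for Tap2, -0.13 ± 0.05 for H2-K1, -0.13 ± 0.04 for Tapbp and -0.56 ± 0.28 for Nlrc5. The smallest adjusted p of a member in that centred fit was 0.765, and with replicate number as a block as well it was 0.15 (limma).

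**Figure D4:**
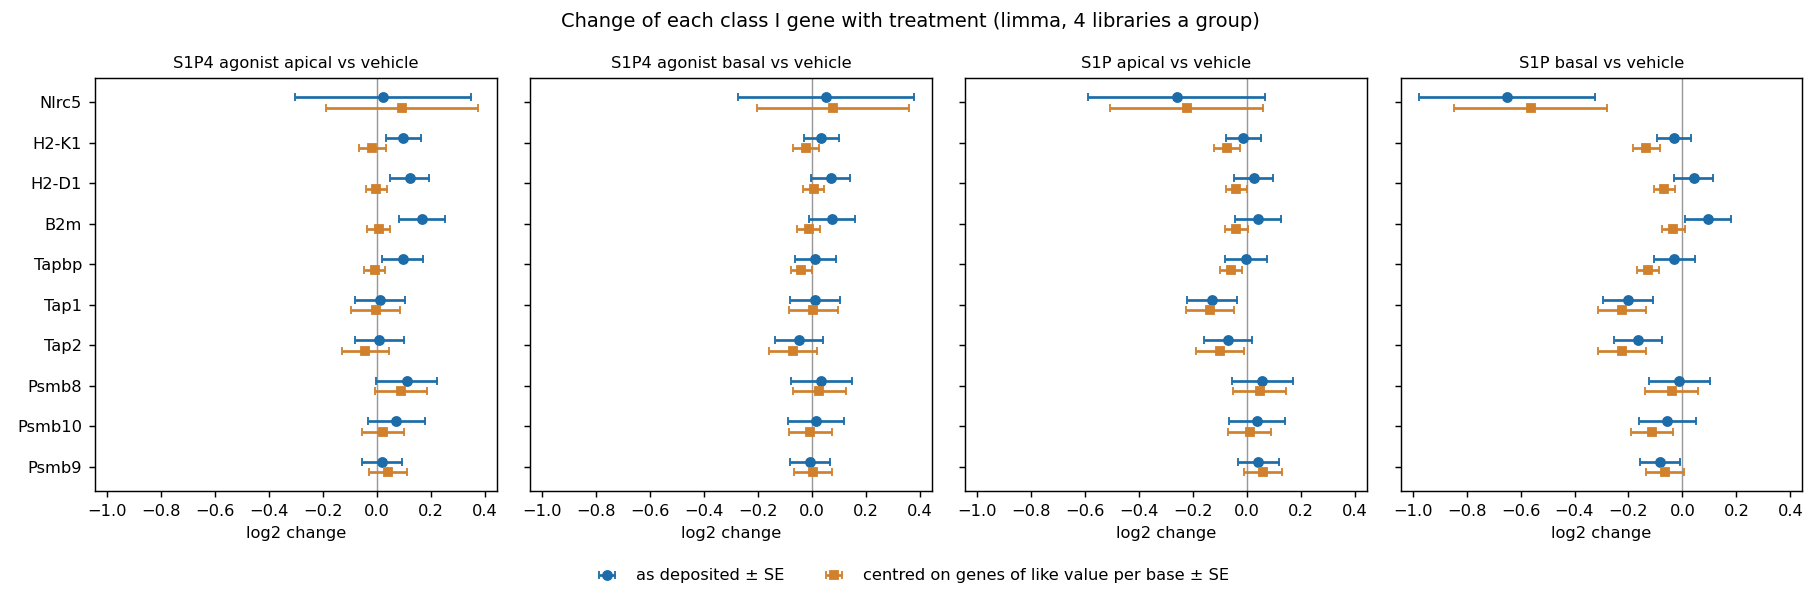
Log2 change ± SE of each member against vehicle for the 4 treatments, as deposited (circles) and after centring on genes of like value per base (squares), from limma fits over 20 libraries. Centring draws B2m, H2-D1, H2-K1 and Tapbp to 0 with apical agonist and places all 10 members below 0 with basal S1P, where none passed the test.

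The immunoproteasome subunits replace constitutive subunits under interferon and favour peptides that fit class I grooves. Psmb8 had 307, 310, 358 and 350 normalized counts in vehicle and 264, 355, 365 and 337 with basal S1P, with overlapping groups. Psmb9 had 175, 199, 190 and 194 in vehicle and 182, 175, 166 and 192 with basal S1P, a log2 change of -0.08 ± 0.07. Against the 3 other treatments the Psmb9 change was -0.10 ± 0.06 and that of Psmb10 -0.10 ± 0.09 (centred values -0.10 and -0.12). Without basal S1P replicate 3 the Psmb9 change was -0.07, and -0.05 against vehicle. Without basal S1P replicate 1 the Psmb10 change was -0.02. Psmb10 had 229, 216, 272 and 277 in vehicle and 200, 254, 255 and 246 with basal S1P. None of the 3 had an unadjusted p under 0.05 in any comparison.

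The members did not vary as 1 group. As deposited, H2-K1, H2-D1, B2m and Tapbp correlated with each other at r = 0.84 to 0.96 over the 20 libraries, and with Psmb8 and Psmb10 at 0.65 to 0.87, all genes that also follow the library factor. Nlrc5 had r = -0.03 with H2-K1, -0.38 with H2-D1 and -0.48 with B2m. After centring, Nlrc5 had r = 0.89 with H2-K1, 0.76 with H2-D1, 0.73 with Tap1, 0.68 with Tap2, 0.60 with B2m and 0.52 with Tapbp. With the immunoproteasome the centred r of Nlrc5 was low, -0.13 for Psmb8, 0.05 for Psmb10 and 0.27 for Psmb9. Psmb8 and Psmb10 had a centred r of 0.79 with each other, and Psmb10 one of 0.59 with Tapbp. These are descriptions over 20 libraries that share treatments and replicate numbers, so no p is given.

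The relation of Nlrc5 to H2-K1 is described further because its centred r was the highest of Nlrc5 with any member. The values that follow come from the same libraries and are no separate support. How many tested genes reach such a centred r with either gene was not counted. Spearman's rho after centring was 0.80. Without the 2 libraries farthest from the median of Nlrc5 (basal S1P replicate 2 and basal agonist replicate 2), r was 0.82 over 18 libraries. Within replicate numbers it was 0.90 and within treatment groups 0.86. For B2m the relation was looser, with rho = 0.32 and r = 0.47 over the 18 libraries, and for Tapbp r was 0.24 within treatment groups.

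**Figure D5:**
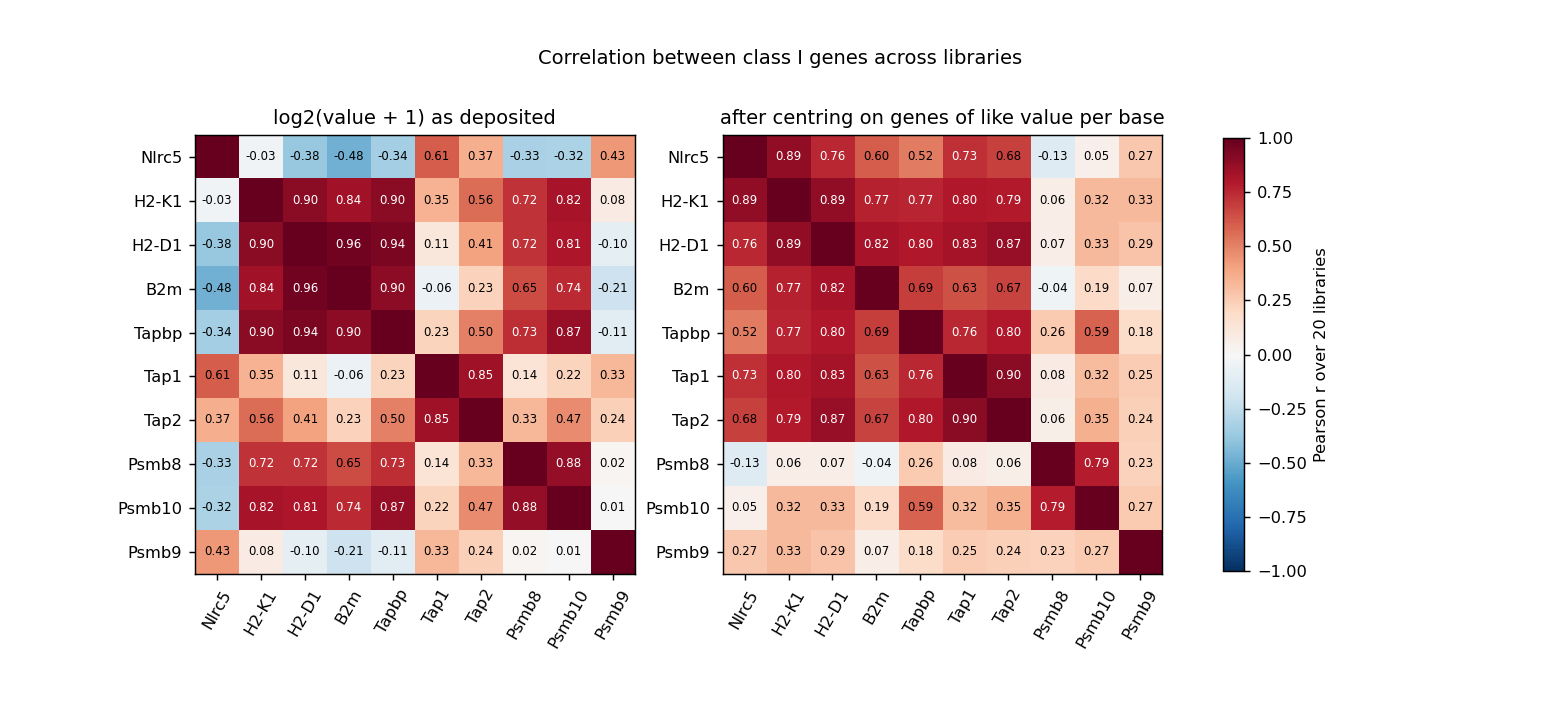
Pearson r between members over the 20 wild-type libraries, as deposited (left) and after centring on genes of like value per base (right), with red for positive and blue for negative r. The row of Nlrc5 turns from -0.03 to 0.89 for H2-K1 and from -0.48 to 0.60 for B2m, and Psmb9 stays low with every other member after centring (0.07 to 0.33).

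As deposited, more of the variance lay between replicate numbers than between treatments for most members. Replicate number accounted for 54.4% of the variance of H2-D1, 58.4% of Psmb8, 55.0% of Psmb10 and 47.2% of Tap2, and treatment for 18.8%, 8.80%, 9.99% and 23.9%. Over all tested genes the medians were 42.9% and 13.9%. Psmb9 and Tap1 were the exceptions, with 6.64% and 27.9% by number and 25.2% and 37.7% by treatment. For Nlrc5 the shares were 27.04% by number and 27.03% by treatment. After centring the order turned, with more variance between treatments than between numbers for 7 of 10 members. Tapbp then had 58.3% by treatment and 18.7% by number, H2-K1 45.0% and 10.1%, and H2-D1 38.7% and 13.2%. B2m, Psmb8 and Psmb10 kept more by number. The centred medians over all genes were 13.8% by treatment and 41.1% by number.

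Among genes outside the set, the pattern most like the mean of the members belonged to Ifngr1, a subunit of the interferon-gamma receptor, with r = 0.93 over the 20 libraries. The next 7 were Nop53 (0.87), Arl15 (0.87), Nrros (0.86), Cat (0.86), Gimap6 (0.85), Stau1 (0.83) and Sidt2 (0.83). All 8 lay above percentile 81 of normalized counts per kb. After centring, the likest were Enpp2 (0.94), Ifngr1 (0.91), Rasgef1a (0.89) and the heavy chain H2-Q4 (0.89). Then came Arhgap26 (0.88), Nop53 (0.87), Arl15 (0.87) and Tapbpl, a relative of tapasin (0.87). Of these 8, Ifngr1, H2-Q4 and Tapbpl were in the pathway lists and the others were not. The likeness of list genes as a whole was not set against that of all genes.

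The rest of the class I pathway was counted from lists assembled with earlier results of these data known. In no list did a gene pass the test for basal S1P against vehicle. Of the 12 other heavy chain genes tested, 10 had a lower mean, with a median log2 change of -0.21 as deposited and -0.17 after centring. H2-Q4 was at -0.23 ± 0.11, H2-Q6 at -0.39 ± 0.22 and the non-classical H2-T23, which presents leader peptides, at -0.39 ± 0.20. Of 13 loading and trimming genes 7 were lower as deposited and 8 after centring. Tapbpl, an editor of bound peptides, was at -0.24 ± 0.09, while the chaperones Pdia3 and Calr, which also serve other glycoproteins, were at 0.16 ± 0.07 and 0.19 ± 0.10.

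Among the constitutive proteasome genes all 14 tested subunits had a higher mean with basal S1P than in vehicle, with a median log2 change of 0.19 as deposited and 0.15 after centring. Psma3 and Psma7, outer ring subunits, were at 0.21 ± 0.10 and 0.19 ± 0.10, and Psmb6, the constitutive counterpart of Psmb9, was at 0.24 ± 0.12. With apical S1P all 14 were higher too (median 0.12), and with apical agonist all 14 as deposited and 13 after centring. These comparisons share the same 4 vehicle libraries. Of 10 activator and assembly genes 8 were higher with basal S1P, among them the assembly chaperones Psmg1 at 0.27 ± 0.11 and Psmg4 at 0.20 ± 0.19 and Pomp, a proteasome maturation factor, at 0.20 ± 0.09.

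Regulators of the pathway were counted in each treatment against vehicle. Of 18 transcription factor genes 13 had a lower mean with basal S1P, 13 with apical S1P, 11 with basal agonist and 10 with apical agonist. After centring 13 were lower with basal S1P. Rfx5, part of the complex that binds the X box, had 337 ± 16 normalized counts in vehicle (SD, n = 4) and a mean of 263 with basal S1P, a log2 change of -0.36 ± 0.08 (unadjusted p = 0.000483, adjusted p = 0.503 by limma), and one of -0.20 ± 0.08 with apical S1P (adjusted p = 1.0 by limma). Its groups did not overlap, as was so for 1.08% of tested genes in that direction. Irf1, the interferon-induced factor that binds class I and Psmb9 promoters, had 510 ± 22 and a mean of 434, a log2 change of -0.23 ± 0.07 (adjusted p = 0.731 by limma), also without overlap. Atf1, named after its values were seen, was the 1 factor in the list whose groups lay apart the other way, at 0.06 ± 0.06, as was so for 1.03% of tested genes. Nfkb1 was at -0.14 ± 0.06. Of 13 interferon receptor and signalling genes 9 were lower with basal S1P as deposited and after centring, 10 with apical S1P, 8 with basal agonist and 6 with apical agonist. With basal S1P Jak2 was at -0.15 ± 0.13, Pias1 at -0.14 ± 0.10 and the phosphatase gene Ptpn11 at 0.07 ± 0.06.

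Interferon-induced genes were also counted. Of 26 tested, 24 had a lower mean with basal S1P than in vehicle, with a median log2 change of -0.34 as deposited and -0.30 after centring. Gbp5, Gbp3 and Gbp2, GTPases that act against intracellular pathogens, were at -0.78 ± 0.25, -0.45 ± 0.12 and -0.33 ± 0.12, with limma adjusted p of 0.756, 0.649 and 0.756. With apical S1P 23 of 26 were lower (median -0.19) and with basal agonist 19, while with apical agonist 22 were higher (median 0.07). Ifng, Ifnb1 and Ciita, the class II counterpart of Nlrc5, were not in the wild-type table.

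Most markers of cells with high class I levels were low. The 7 MHC class II genes in the table summed to 10 to 33 normalized counts per library and none reached a mean of 10. Lymphocyte markers summed to 2 to 13 counts. Of the 16 microglia and macrophage markers, 14 were in the table and summed to 711 to 877, mostly from Laptm5 (mean 722). Cd68 had a mean of 46 and reached 69, and Mrc1 had a mean of 18 and reached 42. Ptprc, Csf1r, C1qa, C1qb and C1qc did not exceed 16 in any library. Pericyte and smooth muscle markers ran from 1219 to 4658 and fibroblast markers from 245 to 1142, differing between replicate numbers within each group. Of 11 tested pericyte and smooth muscle markers, 10 had a higher mean with apical S1P than in vehicle (median log2 change 0.48), 8 a lower mean with basal S1P (median -0.15), and all 11 a lower mean with basal than with apical S1P (median -0.80). Apical S1P replicates 3 and 4, which did not match their number by Xist, summed to 3810 and 2424. In the other wild-type groups replicate 3 summed to 2319 to 2629 and replicate 4 to 1219 to 1362. The marker contrasts with apical S1P were not recounted without these libraries. Of 5 tested fibroblast markers, 4 were lower with basal S1P than in vehicle (median -0.37) and all 5 were lower with apical agonist (median -0.37). None of these markers had an adjusted p under 0.05 (limma), and their part in the values of the members, such as the lower Tap1 and Nlrc5 means with basal S1P, was not tested. The 16 endothelial markers summed to 27821 to 33823. In pooled RNA, fewer cells of a type and less RNA per cell cannot be told apart.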

How the data were processed

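The members and gene lists were chosen with earlier results of these data known. Per the submitters' processing notes, FastQC, Trimmomatic 0.38, STAR 2.7.3a, featureCounts 1.6.5 (Subread), DESeq2 1.26.0 and build mm10 were used, with no role or order given. The authors deposited a signal for each gene, called normalized counts here. Steps in the values show it to be the gene's count multiplied by a library factor and rounded to a whole number. Column headings of the S1P groups read SP1 and were matched to S1P. Totals were 4.49 to 4.72 M (wild-type) and 17.4 to 17.8 M (labelled S1P4 KO, 18297 genes, 18029 repeated rows dropped). A printed log2 change is of log2(value + 1), fitted as group means over 20 wild-type libraries with limma 3.58.1 (R 4.3.3, variance trend, two-sided), for 12249 genes with a mean of at least 10. Since the reads could not be recovered, no count model was used. The fit was tested on simulated data.

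Genes named are the 10 members, in each list any gene called and the 3 smallest p for basal S1P against vehicle, the 8 likest genes, and defining markers. Changes smaller than their SE are given as ranges. Alternatives were other pseudocounts (0.5, 5), filters (none, mean 50), scalings, variance prior, sample sets, a replicate block and leaving out libraries. Exon lengths are of GENCODE M21. Same-numbered libraries had an r over 0.1 throughout for apical agonist, basal agonist and apical S1P against vehicle. The same was so for basal against apical agonist. That threshold is low and does not show that the numbers pair the libraries. By Xist, apical agonist replicate 2 and apical S1P replicates 3 and 4 did not match their number. Apical S1P replicate 4 had r = 0.70 with vehicle replicate 3 and 0.40 with vehicle replicate 4. The block changed no member call in these comparisons.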

Additional observations from a re-analysis of the deposited data

Results flagged for a closer look

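In 60 groups of 4 libraries (10 members, 6 groups), 3 held a library far from the other 3, the number that chance gives at 1 in 20. Nlrc5 was at 64 normalized counts in basal S1P replicate 2, against 137 to 141 in the others. Psmb10 was at 200 in basal S1P replicate 1, against 246 to 255. Psmb10 was at 298 in apical S1P replicate 4, against 238 to 241.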

How the results depend on the processing

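The count of members called was 0 under each alternative run in all 7 comparisons. Of the 22 member changes larger than their SE, 18 kept their sign under each alternative and 0 of 496 refits gave an adjusted p under 0.05 (limma, smallest 0.141). The 4 that turned did so on centring, with or without replicate block: B2m with basal S1P to -0.035, and with apical agonist H2-K1 to -0.016, H2-D1 to -0.0020 and Tapbp to -0.0080. Of the other 48 member changes, 38 turned sign under some alternative, 35 of them on leaving out 1 library.

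Over all genes, the replicate block raised the calls from 3 to 47 for basal S1P against vehicle, from 3 to 83 for basal against apical S1P and from 6 to 137 for basal S1P against the 3 other treatments, with no member among them. In these comparisons the numbers did not pair every library (lowest r of 0.03 against vehicle and -0.34 against apical S1P). Fitting only the groups compared gave 0, 1 and 3. Nlrc5 rested on an estimated 56 to 283 reads per library and Psmb9 on 152 to 229.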
